A study of Mus musculus with 15 samples.

Results

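The 48 imprinted genes described here were taken by symbol from a list of known mouse imprinted genes, and all 48 were among the 56092 named genes of the expression table. The libraries came from STR-KI mouse embryonic stem cells (genotype Sox2::mCherry/WT, Tbxt::GFP/WT), which carry a red reporter on the neural factor gene Sox2 and a green one on the mesoderm factor gene Tbxt. Cells received 10 ng/mL FGF2 for 48 h and then FGF2 with 5 µM of the WNT agonist CHIR for 24 h, which gives neuromesodermal progenitors (NMPs), the bipotent cells of the tail end of the embryo. NMPs were sorted as double positive (NMP, 3 libraries) and replated, and all 8 groups share the line and its genotype. No group holds cells of an animal, and nothing in the table separates the 2 parental alleles.

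After 48 h in FGF/CHIR, cells were sorted as Sox2::mCherry+ (Sox2 48 h, 2 libraries) or as Tbxt::GFP+ (Tbxt 48 h, 2 libraries). Sox2::mCherry+ cells kept for 7 d in FGF/CHIR were sorted as Sox2+ (FGF/CHIR Sox2+, 1 library) or as double negative (FGF/CHIR DN, 1 library). Those kept for 7 d in FGF alone were likewise sorted as Sox2+ (FGF Sox2+, 2 libraries) or as double negative (FGF DN, 1 library). Tbxt::GFP+ cells kept for 7 d in FGF/CHIR were sorted as double negative (Tbxt 7 d, 3 libraries). Where values of the 3 groups with a single library stand without names, their order is FGF/CHIR Sox2+, then FGF/CHIR DN, then FGF DN. Whether libraries of a group come from separate cultures is not said in the labels, so the p-values measure only the spread between these libraries, which may be technical.

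An imprinted gene is read mainly from the copy inherited from one parent. The choice rests on DNA methylation laid down in the egg or sperm at a control region, which is kept through the wave of demethylation after fertilization by factors such as ZFP57. Imprinted genes often lie in clusters, where one control region sets genes read from one parental copy against genes or long noncoding RNAs read from the other. Many imprinted genes promote or restrain fetal and placental growth. By textbook assignment, 24 of the 48 were classed as paternally expressed, 20 as maternally expressed and 4 as mixed by tissue or transcript (Grb10, Blcap, Gnas and Inpp5f). The paternal and maternal classes take no account of genes imprinted in some tissues only. Whether any gene is imprinted in these cells was not measured.

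Values are CPM, counts scaled to a total of 1e6 per library, and depth was 3.43 to 9.88 M reads (1e6) in 14 libraries and 0.799 M in FGF Sox2+ replicate 2, as read from the smallest step of the values. A floor of 3 reads is 0.304 to 0.874 CPM in the 14 libraries and 3.76 CPM in the shallow one, for counting error only. Tests compared log2(CPM + 1) with limma, so fold changes of low genes are understated, and p-values were adjusted with Benjamini-Hochberg over the 12943 genes that reached 5 CPM in 2 or more libraries. The 6 mesenchyme markers summed to 6887, 6134 and 7088 CPM in the Tbxt 7 d libraries, and the 6 neural progenitor markers to 718 and 1127 CPM in FGF Sox2+. In FGF DN, endoderm, visceral endoderm and trophoblast markers reached 348, 163 and 166 CPM, with Ttr alone at 147 CPM of the visceral endoderm sum. The mesenchyme sum of that library was larger, at 386 CPM. Its pluripotency, NMP and caudal epiblast, and endothelium markers summed to 193, 151 and 60.9 CPM, so its markers were mixed. In FGF/CHIR DN, mesenchyme, pluripotency and visceral endoderm markers summed to 2297, 350.6 and 116 CPM. Blood markers summed to at most 0.457 CPM in any library. In bulk RNA, fewer expressing cells and less RNA per cell cannot be told apart.

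Of the 48 members, 34 passed the expression filter and 31 of these passed the test in at least 1 of 7 comparisons. Snrpn (spliceosome), Ube3a (ubiquitin ligase) and Inpp5f (phosphatase) passed in none with all libraries. With 1 library left out, Snrpn was lower in Tbxt 7 d than in FGF Sox2+ (adjusted p = 0.00464 without FGF Sox2+ replicate 2), and Ube3a was higher in Tbxt 48 h than in NMPs (0.72, adjusted p = 0.0263, without NMP replicate 2). Another 12 never reached 5 CPM, and H19 and Magel2 did so in 1 library only. The summed CPM of the 48 genes was 2624 to 3014 in the NMP libraries, 3820 to 3886 in Sox2 48 h, 5097 to 5508 in Tbxt 48 h and 7656 to 10510 in Tbxt 7 d. Igf2 made up 2.08 to 2.55% of that sum in NMPs and 30.1 to 32.7% in Tbxt 48 h. Without Igf2 the sum was still 2569 to 2948 CPM in NMPs and 6689 to 7289 CPM in Tbxt 7 d.

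**Figure D1:**
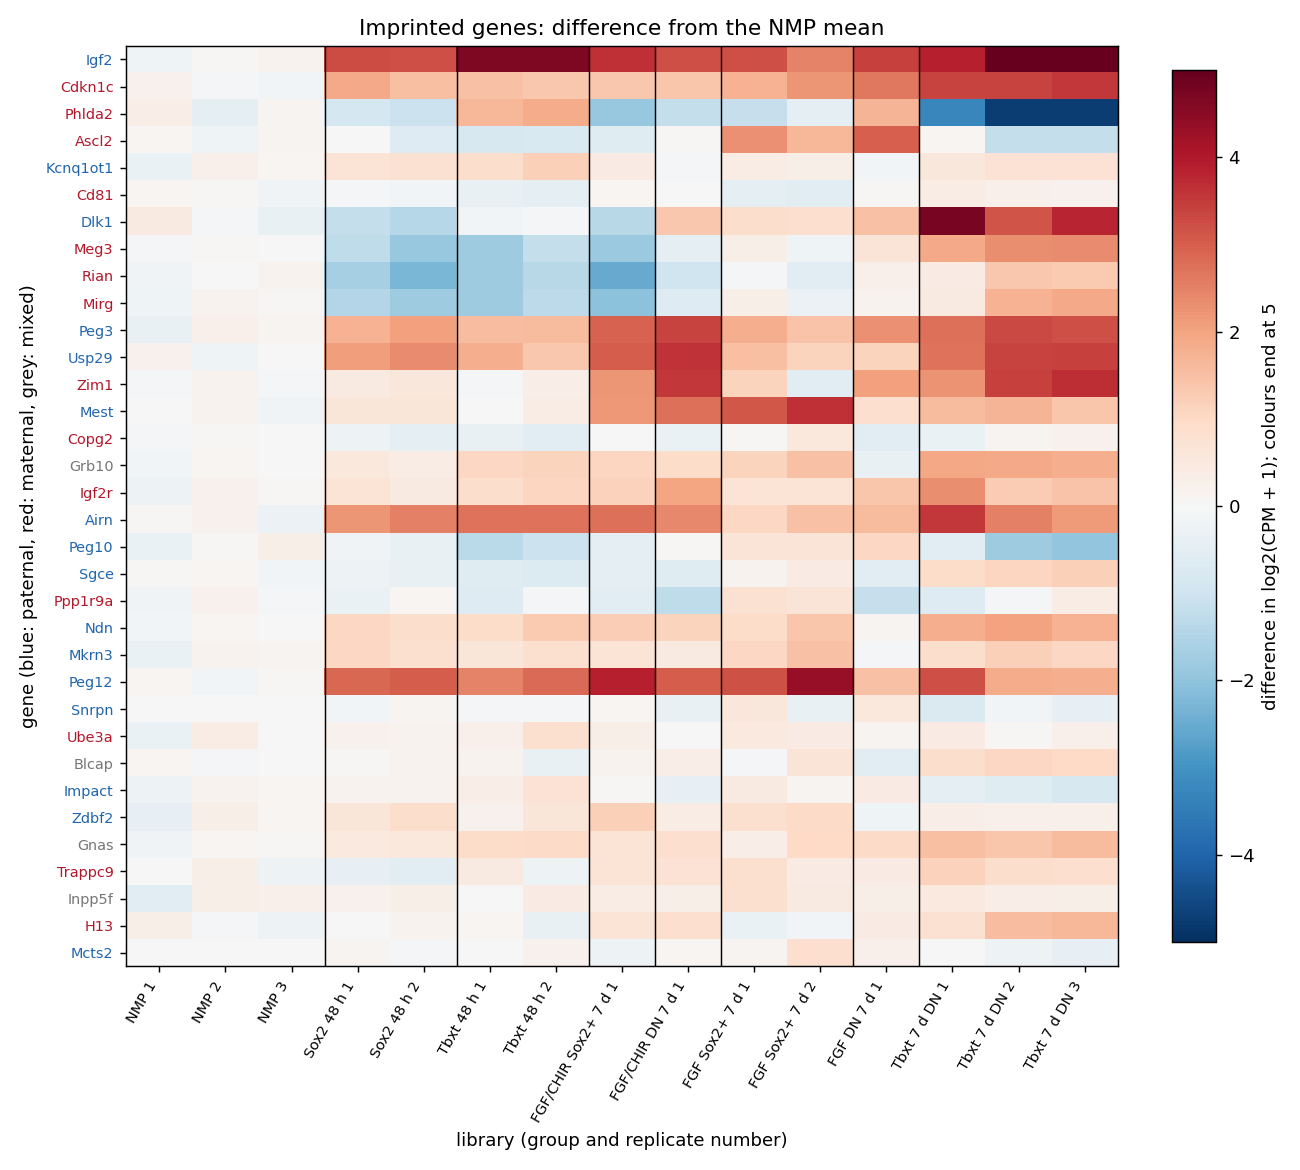
Heat map of the 34 tested imprinted genes (rows, blue names paternal, red maternal, grey mixed) in the 15 libraries (columns), coloured by the difference in log2(CPM + 1) from the NMP mean, with colours ending at 5. Igf2 is red in all 12 libraries after the NMP stage, and Meg3, Rian and Mirg are blue in both 48 h groups.

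A pair of libraries stood apart. Tbxt 7 d replicate 1 lay more than 1.5-fold outside the other 2 libraries of its group for 13 of the 34 tested members (38.2%), against 16.8% of all tested genes. Those 13 were Igf2, Phlda2, Ascl2, Dlk1, Rian, Mirg, Usp29, Zim1, Igf2r, Airn, Peg10, Peg12 and H13. The same library had 26.5 CPM of Gata3 against 1.19 and 0.790, while Plac1, another trophoblast marker, was lower (2.91 CPM against 6.14 and 8.16). It had a neuron marker sum of 38.7 CPM against 147 and 114. Whether that bears on the 13 genes was not tested. The second library, FGF Sox2+ replicate 2, is the shallow one. It and replicate 1 differed by more than 1.5-fold in 10 of 34 members (29.4%), near the 24.7% of all genes. Leaving both set-apart libraries out, an alternative chosen after seeing the data, gave 19, 22, 5, 10, 23, 25 and 23 members called in the 7 comparisons, in the order given below, against 15, 19, 2, 13, 20, 27 and 14 with all libraries. Over all genes the calls moved too, to 1996, 3560, 1328, 2939, 7536, 5929 and 5197 of 12646 genes from 1025, 2376, 505, 3203, 7014, 6161 and 4346 of 12943.

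At 48 h, Igf2, Peg3, Usp29, Airn, Peg12 and Cdkn1c rose in both branches and the noncoding RNAs Meg3, Rian and Mirg fell. In Sox2 48 h against NMP, 12 of the 34 members rose and 3 fell, where 2.65% of all genes rose, 5.27% fell and 7.92% were called in either direction. In Tbxt 48 h against NMP, 13 rose and 6 fell, where 7.82% of all genes rose, 10.5% fell and 18.4% were called in all. The median member changed by 0.18 and 0.19 on the log2 scale, against -0.01 and -0.02 over all genes. The 2 comparisons share the NMP libraries, so they are not separate evidence, and the later comparisons share groups in the same way. The presomitic mesoderm markers summed to 836 and 693 CPM in Tbxt 48 h and the pluripotency markers to 369.7, 245 and 306 CPM in NMPs, and their part in these changes was not tested.

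By parental class, 10 of 16 paternal members rose in Sox2 48 h and none fell, and in Tbxt 48 h 8 rose and 2 fell. Of 14 maternal members, 1 rose and 3 fell in Sox2 48 h, and 3 rose and 4 fell in Tbxt 48 h. All 3 falls in Sox2 48 h, and 3 of the 4 in Tbxt 48 h, were Meg3, Rian and Mirg of a single cluster. Shares over all genes are those of the paragraph above. Median log2 changes were 0.73 and 0.62 for the paternal members and -0.23 and -0.25 for the maternal ones, in Sox2 48 h and Tbxt 48 h. The difference between the classes was not tested, since members of a cluster share control elements and are not independent.

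**Figure D2:**
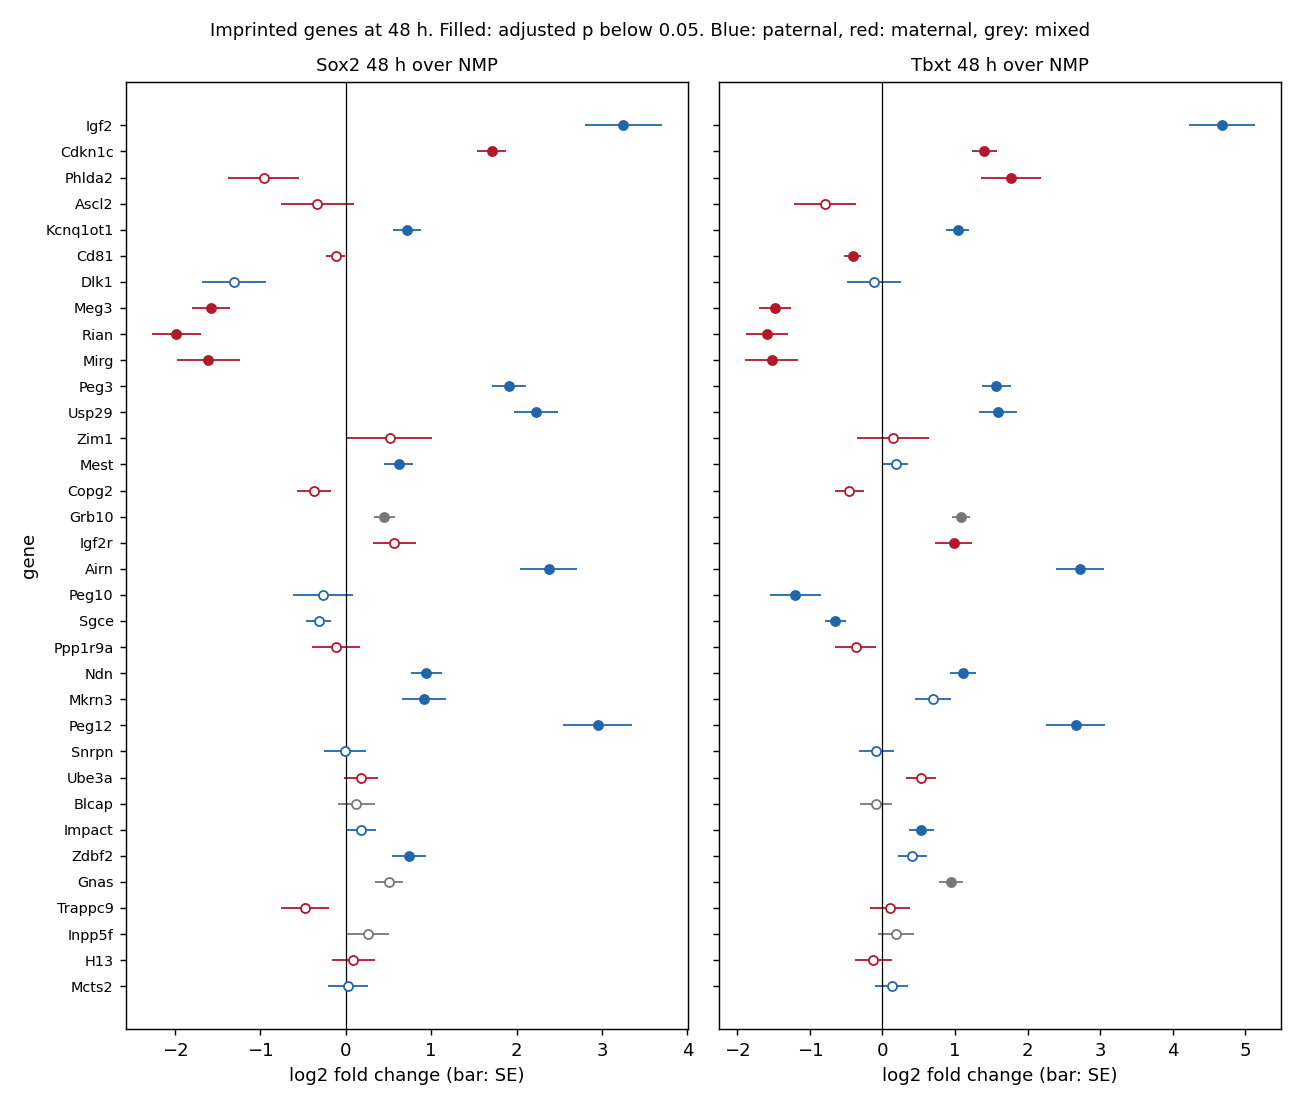
Log2 fold change with its standard error for each tested imprinted gene in Sox2 48 h over NMP (left) and Tbxt 48 h over NMP (right), filled where the adjusted p was below 0.05, in blue for paternal, red for maternal and grey for mixed genes. Igf2 lies farthest to the right in both panels, at 3.25 and 4.68, and Rian farthest to the left, at -1.98 and -1.59.

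Igf2 encodes the fetal insulin-like growth factor 2. Its level was 54.4, 65.8 and 72.6 CPM in the NMP libraries, 626 and 605 in Sox2 48 h and 1665 and 1659 in Tbxt 48 h. It rose in Sox2 48 h (log2 fold change 3.25 ± 0.45, adjusted p = 0.00225) and in Tbxt 48 h (4.68 ± 0.45, adjusted p = 0.000149), with every 48 h library above every NMP library. Both Tbxt 48 h libraries also lay above both Sox2 48 h libraries, but that difference (1.43 ± 0.50, adjusted p = 0.155) missed the threshold in the fit of all libraries. With both set-apart libraries left out it passed (1.43, adjusted p = 2.81e-05).

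At 7 d Igf2 was at 967, 3090.1 and 3220.3 CPM in the Tbxt 7 d libraries, with replicate 1 far below the other 2. It was at 611 and 364 CPM in FGF Sox2+, 684 in FGF DN, 818 in FGF/CHIR Sox2+ and 601 in FGF/CHIR DN. Every library after the NMP stage thus held more than every NMP library. Tbxt 7 d exceeded FGF Sox2+ (2.17 ± 0.45, adjusted p = 0.00326). Against Tbxt 48 h, Igf2 did not pass (0.36 ± 0.45, adjusted p = 0.539), and without Tbxt 7 d replicate 1 it did (0.92, adjusted p = 0.00131).

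H19, the maternal noncoding RNA that shares enhancers with Igf2, stayed near the floor. It was at 0.130, 0 and 0.116 CPM in NMPs, 0 and 0.229 in Sox2 48 h, 0.202 and 0.506 in Tbxt 48 h and 0, 0.198 and 0 in Tbxt 7 d, so the libraries with the most Igf2 held almost no H19. Its highest values were 11.3 CPM in FGF Sox2+ replicate 2, the shallow library, and 3.89 CPM in FGF/CHIR DN. FGF Sox2+ replicate 1 held only 0.425 CPM, FGF DN 0.825 and FGF/CHIR Sox2+ 0.206. No fold is given for H19, which failed the filter. Both genes carry microRNAs in RefSeq, printed here with those of the other hosts discussed below, the seed (bases 2 to 8) in capitals. The oligo-dT primed libraries give no level of mature microRNAs.
miR-483-3p (in Igf2): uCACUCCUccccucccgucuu
miR-483-5p (in Igf2): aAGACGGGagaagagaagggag
miR-675-5p (in H19): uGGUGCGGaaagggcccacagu
miR-675-3p (in H19): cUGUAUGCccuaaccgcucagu
miR-335-5p (in Mest): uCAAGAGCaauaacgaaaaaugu
miR-335-3p (in Mest): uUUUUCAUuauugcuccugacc
miR-770-5p (in Meg3): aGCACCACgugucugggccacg
miR-370-3p (in Rian): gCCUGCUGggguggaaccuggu
miR-341-3p (in Rian): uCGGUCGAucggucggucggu
miR-410-3p (in Mirg): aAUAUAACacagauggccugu
miR-453 (in Mirg): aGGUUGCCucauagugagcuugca
miR-496a-5p (in Mirg): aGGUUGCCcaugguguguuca

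The last 2 share the seed GGUUGCC. In the RefSeq annotation of GRCm38.p6, Mirg holds 10 hairpins, Rian 3, and Meg3, Mest, Igf2 and H19 1 each.

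**Figure D3:**
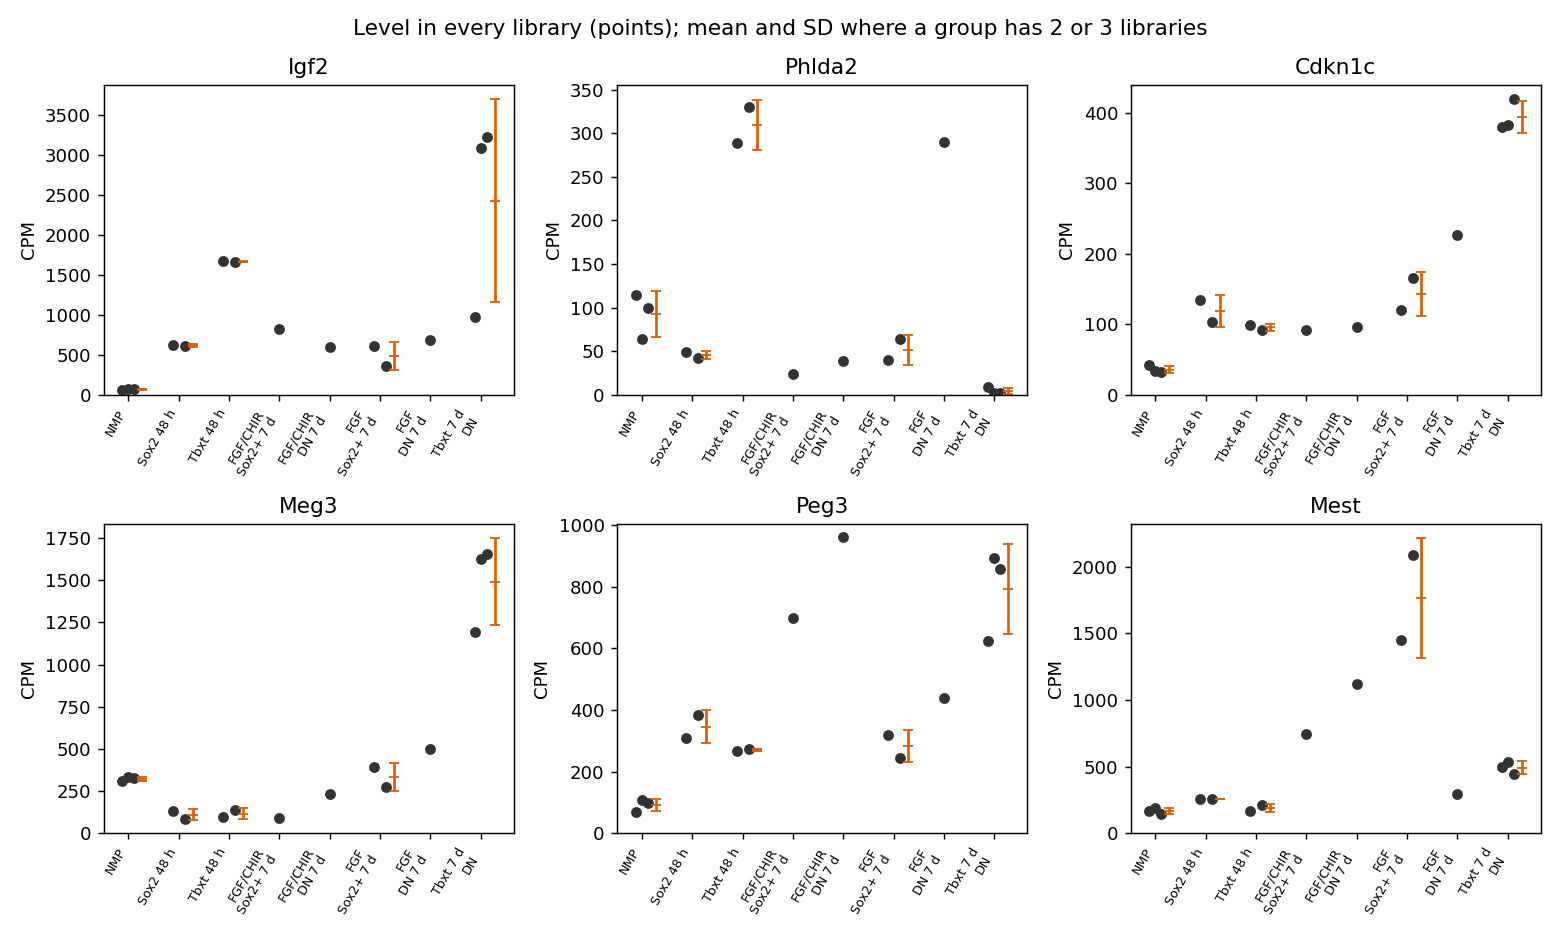
Level of Igf2, Phlda2, Cdkn1c, Meg3, Peg3 and Mest in CPM in each library (points), with the mean and SD of groups of 2 or 3 libraries. Igf2, Cdkn1c, Meg3 and Peg3 are high in Tbxt 7 d, Phlda2 is high in Tbxt 48 h and FGF DN, and Mest is highest in FGF Sox2+.

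The Dlk1-Meg3 cluster gives maternal noncoding RNAs (Meg3, Rian, which hosts small nucleolar RNAs, and Mirg, which hosts microRNAs) and the paternal genes Dlk1, a Notch-like membrane protein, and Rtl1, a retrotransposon-derived gene of the placenta. All 3 noncoding RNAs fell by 48 h in both branches and were higher again at 7 d. Meg3 was at 311, 332 and 327 CPM in NMPs, 133 and 87.0 in Sox2 48 h and 94.4 and 140.5 in Tbxt 48 h, with no overlap between either 48 h group and NMPs. It changed by -1.58 ± 0.23, adjusted p = 0.000973, and by -1.48 ± 0.23, adjusted p = 0.000825, respectively. Meg3 then stood at 395 and 275 CPM in FGF Sox2+ and 1193, 1627 and 1656 in Tbxt 7 d, a rise from 48 h of 1.61 ± 0.25, adjusted p = 0.000693, and of 3.67 ± 0.23, adjusted p = 1.08e-07. The single libraries had 88.4 CPM in FGF/CHIR Sox2+, 232 in FGF/CHIR DN and 501 in FGF DN, so FGF/CHIR Sox2+ lay within the range of Sox2 48 h.

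Rian was at 100.3, 112 and 128 CPM in NMPs, 34.6 and 22.3 in Sox2 48 h, 32.3 and 42.0 in Tbxt 48 h, 105 and 76.4 in FGF Sox2+ and 148, 292 and 282 in Tbxt 7 d. It fell at 48 h (-1.98 ± 0.29, adjusted p = 0.00118 in Sox2 48 h; -1.59 ± 0.29, adjusted p = 0.00266 in Tbxt 48 h) and rose by 7 d (1.66 ± 0.31, adjusted p = 0.00286 in FGF Sox2+; 2.61 ± 0.29, adjusted p = 1.30e-05 in Tbxt 7 d). Its single libraries held 19.1 CPM in FGF/CHIR Sox2+, 56.3 in FGF/CHIR DN and 137 in FGF DN. Its lowest library was FGF/CHIR Sox2+, and Tbxt 7 d lay above all other groups.

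Mirg was at 13.2, 17.5 and 16.4 CPM in NMPs, 5.05 and 3.89 in Sox2 48 h, 3.90 and 5.74 in Tbxt 48 h, 19.3 and 12.5 in FGF Sox2+ and 21.7, 54.6 and 60.6 in Tbxt 7 d. FGF DN had 17.8 CPM, FGF/CHIR DN 9.60 and FGF/CHIR Sox2+ 2.98. It changed by -1.61 ± 0.37, adjusted p = 0.0185, in Sox2 48 h and by -1.53 ± 0.37, adjusted p = 0.0133, in Tbxt 48 h, and rose to 7 d by 1.61 ± 0.41, adjusted p = 0.0128, and by 2.89 ± 0.37, adjusted p = 3.72e-05. Replicate 1 of Tbxt 7 d held less than the other 2 for Rian and for Mirg.

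Dlk1 was low until 7 d. Its level was 8.56, 5.47 and 4.41 CPM in NMPs, 2.02 and 1.60 in Sox2 48 h, 5.26 and 5.57 in Tbxt 48 h, 11.9 and 11.3 in FGF Sox2+ and 185, 59.99 and 96.7 in Tbxt 7 d. The single libraries had 1.64, 16.5 and 17.95 CPM, so the 3 Tbxt 7 d libraries were above all others. Dlk1 rose from 48 h in FGF Sox2+ (2.17 ± 0.41, adjusted p = 0.00255) and in Tbxt 7 d (4.01 ± 0.37, adjusted p = 2.66e-06). Its lower value in Sox2 48 h than in NMPs (-1.31 ± 0.37, adjusted p = 0.0512) missed the threshold. Rtl1 was at 0 in 13 libraries and was at 0, 0.396 and 0.527 CPM in Tbxt 7 d, 2 reads in each nonzero library and under the floor of 3.

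The promoter of Meg3 overlaps methylation control of the cluster, and the 250 bases before its start are printed from RefSeq (chr12:109540746-109540995, plus strand, GRCm38.p6, a build other than the GRCm39 of the reads). Capitals mark the hexamer TGCCGC or its reverse complement GCGGCA, the core bound by ZFP57 when methylated.
Meg3: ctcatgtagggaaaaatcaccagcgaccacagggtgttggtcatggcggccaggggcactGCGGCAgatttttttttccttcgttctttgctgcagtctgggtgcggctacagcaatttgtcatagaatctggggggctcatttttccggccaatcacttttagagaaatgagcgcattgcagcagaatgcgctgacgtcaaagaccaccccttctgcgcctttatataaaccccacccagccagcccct

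In the Kcnq1ot1 cluster, the maternal growth restrainers Cdkn1c (the cell cycle inhibitor p57) and Phlda2 (a placental growth regulator) both rose in Tbxt 48 h and parted from there to Tbxt 7 d. Cdkn1c was at 41.3, 33.4 and 32.0 CPM in NMPs, 135 and 103 in Sox2 48 h and 99.0 and 91.5 in Tbxt 48 h, a rise of 1.71 ± 0.17, adjusted p = 6.36e-05, and of 1.40 ± 0.17, adjusted p = 0.000157. It reached 380.0, 382 and 419.8 CPM in Tbxt 7 d, above every other library (2.04 ± 0.17, adjusted p = 9.76e-07 against Tbxt 48 h). FGF Sox2+ stood at 120.2 and 165 CPM and overlapped Sox2 48 h (0.26 ± 0.19, adjusted p = 0.335). The single libraries held 91.0 CPM in FGF/CHIR Sox2+, 95.3 in FGF/CHIR DN and 227 in FGF DN.

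Phlda2 was at 115, 63.4 and 99.6 CPM in NMPs, 49.0 and 42.5 in Sox2 48 h and 289 and 330.3 in Tbxt 48 h, the last above all NMP and Sox2 48 h libraries. It rose in Tbxt 48 h over NMP (1.77 ± 0.42, adjusted p = 0.0144) and exceeded Sox2 48 h (2.73 ± 0.46, adjusted p = 0.00779), while Sox2 48 h against NMP missed the threshold (-0.96 ± 0.42, adjusted p = 0.217). The Tbxt 7 d libraries held 8.44, 2.38 and 2.37 CPM, a change of -6.03 ± 0.42, adjusted p = 7.91e-07, from Tbxt 48 h. FGF Sox2+ held 39.5 and 63.9 CPM, FGF DN 289.9, FGF/CHIR DN 38.9 and FGF/CHIR Sox2+ 23.4. The FGF DN library, with as much Phlda2 as Tbxt 48 h, is also the one with the highest trophoblast and endoderm marker sums, and the part of such cells was not tested.

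Kcnq1ot1, the paternal noncoding RNA that silences the cluster in cis, was at 123, 183 and 167 CPM in NMPs, 249 and 263 in Sox2 48 h and 286 and 357 in Tbxt 48 h. It rose by 0.72 ± 0.16, adjusted p = 0.0168, and by 1.04 ± 0.16, adjusted p = 0.000915, so it was higher at 48 h together with Cdkn1c. At 7 d it was at 199.6 and 193 CPM in FGF Sox2+, 232, 259 and 258 in Tbxt 7 d, 205 in FGF/CHIR Sox2+, 146 in FGF/CHIR DN and 143 in FGF DN. Cd81, a tetraspanin at the edge of the cluster, was at 448, 439.6 and 372 CPM in NMPs, 393 and 377 in Sox2 48 h, 323 and 305 in Tbxt 48 h, 306 and 292 in FGF Sox2+ and 542, 496 and 489.8 in Tbxt 7 d. It was lower in Tbxt 48 h than in NMPs (-0.41 ± 0.11, adjusted p = 0.0242) and rose to Tbxt 7 d (0.69 ± 0.11, adjusted p = 0.000229), and it fell in FGF Sox2+ (-0.37 ± 0.12, adjusted p = 0.0471). Single libraries had 444, 413 and 436 CPM of Cd81.

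Ascl2, a transcription factor of placental precursors, stayed at or under 1.51 CPM in NMP, 48 h and FGF/CHIR libraries. It reached 10.2 and 6.26 CPM in FGF Sox2+ (2.31 ± 0.47, adjusted p = 0.0039 against Sox2 48 h) and 16.9 in FGF DN, and was at 1.46, 0 and 0 in Tbxt 7 d. The 6.26 CPM is from the shallow library, where 3 reads are 3.76 CPM. Only these 3 FGF libraries reached 5 CPM, so Ascl2 passed the filter through the groups where it was high. Its tests with FGF Sox2+ are thus not independent of the filter, wherever it is counted. Some trophoblast markers were higher in the same libraries. Hand1 was at 75.0 and 26.3 CPM in FGF Sox2+ and 31.8 in FGF DN, against 0.252 and 0 in Sox2 48 h. In the same order, Gata3 was at 16.4, 6.26 and 23.5 against 0.252 and 0.457. Plac1 was at 3.82, 3.76 (the floor of 3 reads) and 108 against 2.02 and 2.29. Elf5 was at 6.58, 1.25 and 1.03 against 0 and 0, and Tpbpa at 0, 0 and 1.86 against 0 and 0. The 5 markers also summed to 42.7 CPM in FGF/CHIR DN and 30.3 in Tbxt 7 d replicate 1, where Ascl2 was at 1.37 and 1.46 CPM. Their part in the Ascl2 level was not tested. Slc22a18 (a transporter) did not pass 1.51 CPM, Kcnq1 (the potassium channel gene that contains Kcnq1ot1) 0.804 CPM, and Tspan32 (a tetraspanin) 0.291 CPM in any library.

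Peg3 and Usp29 rose in both branches at 48 h and were highest in Tbxt 7 d and the FGF/CHIR libraries. Peg3, a paternal zinc finger gene, was at 69.9, 108 and 99.2 CPM in NMPs, 309 and 383 in Sox2 48 h and 269 and 274 in Tbxt 48 h, with no overlap with NMPs (1.91 ± 0.20, adjusted p = 0.000104; 1.57 ± 0.20, adjusted p = 0.000256). It reached 624, 893 and 857 CPM in Tbxt 7 d (1.52 ± 0.20, adjusted p = 4.93e-05 from Tbxt 48 h), 699 in FGF/CHIR Sox2+ and 959 in FGF/CHIR DN. In FGF alone it was at 319.8 and 245 CPM in the Sox2+ libraries, overlapping Sox2 48 h, and 440.4 in FGF DN. The FGF/CHIR libraries are 1 per group, so their difference from FGF alone was not tested.

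Usp29, a paternal ubiquitin protease gene, starts 164 bases from Peg3 on the other strand, and the 300-base promoter windows of the pair share 263 bases. The 250 bases before the Peg3 start (chr7:6730420-6730669, minus strand, GRCm38.p6) are printed because both genes rose together; they hold no TGCCGC or GCGGCA.
Peg3: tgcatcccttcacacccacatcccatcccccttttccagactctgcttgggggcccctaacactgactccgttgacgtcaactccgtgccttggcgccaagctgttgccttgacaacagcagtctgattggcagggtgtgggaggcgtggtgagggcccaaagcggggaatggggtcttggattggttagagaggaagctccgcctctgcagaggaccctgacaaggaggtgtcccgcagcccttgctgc

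Usp29 was at 3.50, 2.41 and 2.90 CPM in NMPs, 15.5 and 19.3 in Sox2 48 h and 12.9 and 8.94 in Tbxt 48 h (2.23 ± 0.26, adjusted p = 0.000211; 1.59 ± 0.26, adjusted p = 0.00126). It stood at 24.9, 40.1 and 41.1 CPM in Tbxt 7 d (1.59 ± 0.26, adjusted p = 0.000233 from Tbxt 48 h), 30.5 in FGF/CHIR Sox2+ and 46.5 in FGF/CHIR DN. In FGF Sox2+ it fell to 10.2 and 7.51 CPM (-0.91 ± 0.29, adjusted p = 0.0351), and FGF DN had 7.53. Zim1, the maternal zinc finger gene beside them, was at or under 1.14 CPM up to 48 h and at 5.82, 14.4 and 18.04 in Tbxt 7 d (2.97 ± 0.49, adjusted p = 0.000261). It held 5.65 CPM in FGF/CHIR Sox2+, 15.8 in FGF/CHIR DN, 2.12 and 0 in FGF Sox2+ and 4.95 in FGF DN. Zim1 reached 5 CPM only in the Tbxt 7 d and FGF/CHIR libraries, so it passed the filter through groups where it was high. Its tests with Tbxt 7 d are thus not independent of the filter, wherever it is counted. Both paternal genes of the cluster, Peg3 and Usp29, rose from Tbxt 48 h to Tbxt 7 d. The maternal Zim1 was higher there too, under that limit.

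Mest, a paternal hydrolase-family gene known from mesoderm, was highest in the Sox2+ cells kept in FGF. It was at 168, 188 and 145 CPM in NMPs, 256 and 256 in Sox2 48 h, 168 and 213 in Tbxt 48 h, 1449 and 2086 in FGF Sox2+ and 495, 538 and 442 in Tbxt 7 d. The single libraries had 743, 1118 and 298 CPM. Mest rose in Sox2 48 h (0.62 ± 0.17, adjusted p = 0.0416), then in FGF Sox2+ (2.76 ± 0.19, adjusted p = 2.54e-06) and in Tbxt 7 d (1.37 ± 0.17, adjusted p = 2.55e-05), and Tbxt 7 d was below FGF Sox2+ (-1.82 ± 0.17, adjusted p = 3.11e-06). Copg2, the convergent vesicle coat gene, was at 50.7, 55.5 and 52.8 CPM in NMPs, 44.8 and 37.0 in Sox2 48 h, 40.7 and 36.1 in Tbxt 48 h, 55.0 and 77.6 in FGF Sox2+ and 41.9, 58.8 and 61.9 in Tbxt 7 d. It passed only in FGF Sox2+ over Sox2 48 h (0.67 ± 0.21, adjusted p = 0.0381), and was at 51.8, 42.3 and 35.7 CPM in the single libraries. The 250 bases before a Mest start hold the hexamer at 2 places (capitals; chr6:30737800-30738049, plus strand, GRCm38.p6).
Mest: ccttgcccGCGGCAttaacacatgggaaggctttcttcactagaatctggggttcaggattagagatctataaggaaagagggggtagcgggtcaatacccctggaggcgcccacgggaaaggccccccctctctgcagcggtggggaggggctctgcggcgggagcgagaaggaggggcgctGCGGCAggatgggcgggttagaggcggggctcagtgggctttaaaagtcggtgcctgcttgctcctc

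At the Igf2r locus the maternal Igf2r encodes the receptor that clears IGF2 to lysosomes, and the paternal noncoding RNA Airn runs antisense through it. Airn rose in both 48 h groups and Igf2r in Tbxt 48 h. Airn was at 4.02, 4.72 and 3.02 CPM in NMPs, 21.6 and 27.2 in Sox2 48 h and 31.0 and 31.3 in Tbxt 48 h (2.37 ± 0.34, adjusted p = 0.000844; 2.72 ± 0.34, adjusted p = 0.000184). Igf2r was at 44.3, 62.9 and 55.7 CPM in NMPs, 87.1 and 73.8 in Sox2 48 h and 100.1 and 115 in Tbxt 48 h, and it rose in the Tbxt branch (0.98 ± 0.25, adjusted p = 0.0188) but did not pass in the Sox2 branch (0.57 ± 0.25, adjusted p = 0.224). No 48 h library of either gene overlapped NMPs.

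By 7 d Airn was at 8.92 and 12.5 CPM in FGF Sox2+, below Sox2 48 h (-1.12 ± 0.37, adjusted p = 0.0414), and at 55.7, 26.8 and 20.4 in Tbxt 7 d, 32.0 in FGF/CHIR Sox2+, 24.5 in FGF/CHIR DN and 13.4 in FGF DN. Igf2r was at 87.3 and 87.6 CPM in FGF Sox2+, 270.4, 133 and 145 in Tbxt 7 d, 122 in FGF/CHIR Sox2+, 212 in FGF/CHIR DN and 143 in FGF DN. Tbxt 7 d replicate 1 was the highest library for both genes. Igf2r rose from Tbxt 48 h to Tbxt 7 d (0.69 ± 0.25, adjusted p = 0.0367), a call lost without that library (0.37, adjusted p = 0.0817). Strand of the counting is not given in the sources used here, so reads of Airn and of Igf2r introns cannot be told apart. The same holds for Kcnq1 and Kcnq1ot1, and for Mest and Copg2. H13 and Mcts2 lie on the same strand, so strand could not separate Mcts2 reads from those of H13 introns.

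Grb10, an adaptor that restrains insulin and IGF signalling, passed as higher in all 6 comparisons between 2 groups. Its levels were 155, 179 and 173 CPM in NMPs, 245 and 219 in Sox2 48 h, 345 and 369 in Tbxt 48 h, 368 and 462 in FGF Sox2+ and 646, 633 and 600.2 in Tbxt 7 d, with no overlap between neighbouring stages. FGF/CHIR Sox2+ and FGF/CHIR DN had 355 and 318 CPM, and FGF DN, at 131 CPM, was the lowest library of all. Grb10 changed by 0.45 ± 0.13, adjusted p = 0.0436, in Sox2 48 h, by 1.08 ± 0.13, adjusted p = 0.000116, in Tbxt 48 h, by 0.83 ± 0.14, adjusted p = 0.00102, in FGF Sox2+ and by 0.81 ± 0.13, adjusted p = 0.000156, in Tbxt 7 d. It was the only member besides Phlda2 that passed in Tbxt 48 h against Sox2 48 h (0.62 ± 0.14, adjusted p = 0.0243).

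Of the paternal genes of the Peg10 cluster, the retrotransposon-derived Peg10 and the sarcoglycan gene Sgce, which share a promoter region, parted in the Tbxt branch. Peg10 was at 117, 152 and 180.3 CPM in NMPs, 132 and 114 in Sox2 48 h, 57.9 and 69.9 in Tbxt 48 h, 234 and 232 in FGF Sox2+ and 102, 42.2 and 36.3 in Tbxt 7 d. It was lower in Tbxt 48 h than in NMPs (-1.20 ± 0.35, adjusted p = 0.0365) and lower in Tbxt 7 d than in FGF Sox2+ (-2.09 ± 0.35, adjusted p = 0.000577). Sgce was at 45.8, 47.4 and 40.4 CPM in NMPs, 36.9 and 34.2 in Sox2 48 h, 28.7 and 27.3 in Tbxt 48 h, 50.2 and 58.8 in FGF Sox2+ and 84.1, 93.9 and 103 in Tbxt 7 d. Sgce too was lower in Tbxt 48 h (-0.65 ± 0.15, adjusted p = 0.00992), rose in FGF Sox2+ over Sox2 48 h (0.60 ± 0.16, adjusted p = 0.0179), and then rose to Tbxt 7 d (1.70 ± 0.15, adjusted p = 1.43e-06) while Peg10 did not pass (-0.23 ± 0.35, adjusted p = 0.6). Without Tbxt 7 d replicate 1 Peg10 fell there (-0.69, adjusted p = 0.00679). In the single libraries Peg10 was at 107, 154 and 299 CPM and Sgce at 31.8, 28.6 and 30.4.

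Ppp1r9a, the maternal neurabin gene of that cluster, was at 21.4, 28.3 and 22.8 CPM in NMPs, 18.7 and 26.1 in Sox2 48 h, 14.8 and 22.8 in Tbxt 48 h, 41.0 and 37.6 in FGF Sox2+ and 14.8, 22.8 and 31.6 in Tbxt 7 d. It passed only as lower in Tbxt 7 d than in FGF Sox2+ (-0.80 ± 0.28, adjusted p = 0.0335), and was at 16.3, 9.37 and 10.1 CPM in the single libraries. Asb4 was highest in FGF DN, at 4.33 CPM, and Calcr, the calcitonin receptor, at 1.24 CPM there, both under the filter.

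In the Snrpn cluster, the paternal genes Ndn (necdin, a MAGE family protein of neurons) and Peg12 (a FRAT family protein that binds the WNT kinase GSK3) rose at 48 h, while Snrpn did not pass. Ndn was at 29.8, 35.9 and 33.7 CPM in NMPs, 68.1 and 60.8 in Sox2 48 h, 62.7 and 83.5 in Tbxt 48 h, 63.5 and 88.9 in FGF Sox2+ and 117, 136 and 114 in Tbxt 7 d. It rose in Sox2 48 h (0.94 ± 0.18, adjusted p = 0.00613), in Tbxt 48 h (1.11 ± 0.18, adjusted p = 0.00111) and further in Tbxt 7 d (0.75 ± 0.18, adjusted p = 0.00351). Single libraries had 78.8 CPM in FGF/CHIR Sox2+, 72.9 in FGF/CHIR DN and 36.3 in FGF DN, so Tbxt 7 d held the most of it.

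Peg12 was at 4.80, 4.02 and 4.64 CPM in NMPs, 39.4 and 43.4 in Sox2 48 h and 29.9 and 38.0 in Tbxt 48 h (2.95 ± 0.40, adjusted p = 0.000997; 2.66 ± 0.40, adjusted p = 0.00105). At 7 d it was at 49.0 and 110.2 CPM in FGF Sox2+, 49.8, 18.8 and 18.4 in Tbxt 7 d, 79.6 in FGF/CHIR Sox2+, 43.7 in FGF/CHIR DN and 14.0 in FGF DN, above all NMP libraries. From Tbxt 48 h to Tbxt 7 d it did not pass (-0.36 ± 0.40, adjusted p = 0.472), and without Tbxt 7 d replicate 1 it fell (-0.82, adjusted p = 0.0255). Mkrn3, a paternal ubiquitin ligase gene, ranged from 2.85 to 4.50 CPM in NMPs and 7.54 to 8.83 in Sox2 48 h (0.92 ± 0.25, adjusted p = 0.0434). Magel2 was at 3.82 and 8.76 CPM in FGF Sox2+, at most 3.54 in any other library, and at 0, 0 and 0.263 in Tbxt 7 d. Snrpn was at 22.3 to 56.4 CPM and Ube3a at 127 to 285 over all libraries. Snurf, which shares a transcript with Snrpn, did not pass 0.992 CPM.

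Among the remaining loci, Gnas (the stimulatory G protein) was at 259, 319 and 310.0 CPM in NMPs, 414 and 422 in Sox2 48 h, 563 and 570.3 in Tbxt 48 h, 369 and 582 in FGF Sox2+ and 845, 775 and 883 in Tbxt 7 d. It rose in Tbxt 48 h (0.94 ± 0.16, adjusted p = 0.00187) and again in Tbxt 7 d (0.55 ± 0.16, adjusted p = 0.0121), and its value in Sox2 48 h missed the threshold (0.50 ± 0.16, adjusted p = 0.0863). The single libraries had 476, 521 and 575 CPM. The single count per gene does not separate the imprinted Gnas transcripts from the biallelic one.

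H13, a signal peptide peptidase gene on the maternal side, holds the paternal retrogene Mcts2 in an intron. H13 was at 76.3, 58.7 and 51.8 CPM in NMPs, 61.3 and 69.7 in Sox2 48 h, 66.1 and 47.8 in Tbxt 48 h, 49.3 and 55.1 in FGF Sox2+ and 105, 180.2 and 198 in Tbxt 7 d, where it rose from Tbxt 48 h (1.45 ± 0.25, adjusted p = 0.000368). Mcts2 was at 11.8, 11.3 and 11.6 CPM in NMPs, 12.6 and 11.0 in Sox2 48 h, 11.7 and 13.8 in Tbxt 48 h, 12.7 and 21.3 in FGF Sox2+ and 11.6, 9.503 and 8.43 in Tbxt 7 d. It passed only as lower in Tbxt 7 d than in FGF Sox2+ (-0.70 ± 0.23, adjusted p = 0.0239). The single libraries held 99.5, 111 and 82.5 CPM of H13 and 9.56, 12.3 and 13.8 of Mcts2.

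Blcap, which surrounds the brain gene Nnat, was at 26.6, 23.2 and 24.0 CPM in NMPs, 25.7 and 27.9 in Sox2 48 h, 28.1 and 18.7 in Tbxt 48 h, 23.8 and 38.8 in FGF Sox2+ and 45.4, 51.5 and 50.6 in Tbxt 7 d. It rose in Tbxt 7 d (1.06 ± 0.22, adjusted p = 0.00116), and was at 27.96, 31.5 and 16.9 CPM in the single libraries. Nnat did not pass 0.594 CPM in any library. Impact, which tunes translation under amino acid shortage, was at 87.4, 120.3 and 113 CPM in NMPs, 120.1 and 120.0 in Sox2 48 h, 135 and 175 in Tbxt 48 h, 145 and 117 in FGF Sox2+ and 76.0, 69.1 and 60.3 in Tbxt 7 d. It fell in Tbxt 7 d (-1.16 ± 0.17, adjusted p = 0.000119), after a rise at 48 h close to the threshold (0.53 ± 0.17, adjusted p = 0.04996), and had 109, 79.1 and 141 CPM in the single libraries.

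Zdbf2, a paternal zinc finger gene, was at 44.1, 72.0 and 63.5 CPM in NMPs, 90.4 and 107 in Sox2 48 h, 68.0 and 90.6 in Tbxt 48 h, 102 and 114 in FGF Sox2+ and 75.1, 70.8 and 69.8 in Tbxt 7 d. It rose in Sox2 48 h (0.74 ± 0.20, adjusted p = 0.0367) and was lower in Tbxt 7 d than in FGF Sox2+ (-0.58 ± 0.20, adjusted p = 0.0269); the single libraries had 134, 75.7 and 50.0 CPM. Trappc9, a trafficking complex gene, ranged from 2.74 to 11.1 CPM and rose to 7 d in FGF Sox2+ (1.08 ± 0.31, adjusted p = 0.0228) and in Tbxt 7 d (0.86 ± 0.28, adjusted p = 0.0203). Inpp5f was at 13.5 to 35.7 CPM. Plagl1, Nap1l5, Peg13 and Rasgrf1 did not pass 0.914, 0.506, 0.229 and 0.413 CPM in any library, so nothing is said of their change.

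The Plagl1 promoter is printed because the zinc finger gene it drives is a textbook member of the network of imprinted growth genes and stayed near the floor in all groups (chr10:13090582-13090831, plus strand, GRCm38.p6; hexamer in capitals).
Plagl1: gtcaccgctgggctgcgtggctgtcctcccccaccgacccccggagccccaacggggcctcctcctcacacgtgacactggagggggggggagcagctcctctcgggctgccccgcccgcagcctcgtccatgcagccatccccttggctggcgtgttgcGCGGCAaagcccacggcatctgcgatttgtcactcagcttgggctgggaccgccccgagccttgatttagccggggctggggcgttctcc

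Over the 39 members with a promoter entry in RefSeq, 14 (35.9%) had TGCCGC or GCGGCA on either strand in the 250 bases before to 50 after a start, against 13.1% of 27025 genes. Members had more windows per gene, and per window the counts were 15 of 56 against 11.6% of 32851. Snrpn and Snurf share a window with a match, which is counted for both. The match was found in 9 of 19 paternal, 4 of 16 maternal and 1 of 4 mixed genes. These are counts of letters; methylation was not measured.

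From 48 h to 7 d, the count of members called stood near the background in the Tbxt branch, but rises outnumbered falls. Sorting also changed in the Tbxt branch (Tbxt+ to double negative) and medium in the Sox2 branch (FGF/CHIR to FGF), and neither can be told apart from time. In Tbxt 7 d against Tbxt 48 h, 18 of 34 members rose and 2 fell (Phlda2 and Impact; without Tbxt 7 d replicate 1 also Peg10 and Peg12), where 54.2% of all genes were called, 30.7% as higher and 23.5% as lower. The median member changed by 0.62 on the log2 scale and the median gene by 0.09. In FGF Sox2+ against Sox2 48 h, 10 rose and 3 fell (Cd81, Usp29 and Airn), where 24.7% of genes were called, 18.2% as higher and 6.51% as lower, with medians of 0.26 and 0.17. Median-of-ratios scaling lowered the median gene there by 0.12 and gave 8 members higher and 4 lower. All 4 tested genes of the Dlk1-Meg3 cluster rose in both branches. Marker sums in FGF Sox2+ against Sox2 48 h were 718 and 1127 against 68.7 and 72.5 CPM for neural progenitors and 183 and 622 against 19.7 and 33.5 for neurons. They were 213 and 56.6 against 17.3 and 15.9 CPM for pluripotency, with all 6 markers above 0 in replicate 1 and Nanog at 0 in replicate 2, and 102 and 37.6 against 2.52 and 2.74 for trophoblast, with Tpbpa at 0. Their part in the members' changes was not tested.

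**Figure D4:**
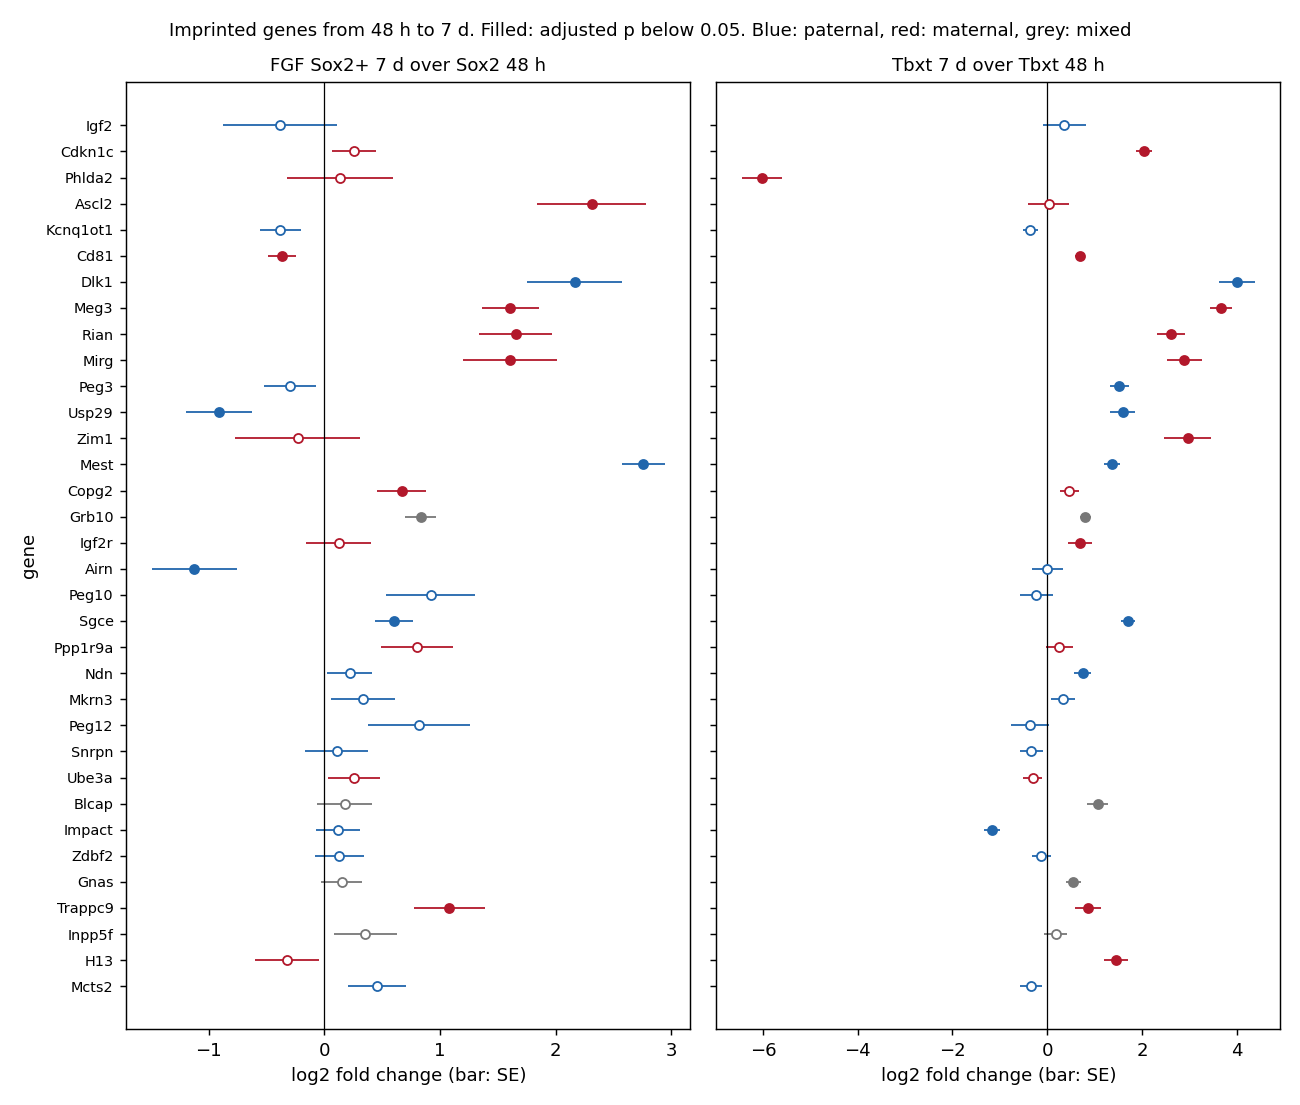
Log2 fold change with its standard error from 48 h to 7 d for each tested imprinted gene, in FGF Sox2+ over Sox2 48 h (left) and Tbxt 7 d over Tbxt 48 h (right, on a wider axis), filled where the adjusted p was below 0.05, in blue for paternal, red for maternal and grey for mixed genes. Phlda2 lies at -6.03 on the right and 0.14 on the left, and Mest at 1.37 and 2.76.

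At the 7 d end points, 27 of 34 members differed between Tbxt 7 d and FGF Sox2+, 18 higher and 9 lower in Tbxt 7 d, where 47.6% of all genes differed, 21.1% higher and 26.5% lower. Besides those given above, the higher members were Cdkn1c (1.47 ± 0.17), Meg3 (2.16 ± 0.23), Rian (1.35 ± 0.29), Mirg (1.36 ± 0.37), Dlk1 (3.04 ± 0.37), Peg3 (1.48 ± 0.20), Usp29 (1.86 ± 0.26), Zim1 (2.83 ± 0.49) and H13 (1.56 ± 0.25). Grb10 (0.60 ± 0.13), Igf2r (0.98 ± 0.25), Airn (1.48 ± 0.34), Sgce (0.77 ± 0.15), Ndn (0.69 ± 0.18), Gnas (0.84 ± 0.16), Blcap (0.67 ± 0.22) and Cd81 (0.77 ± 0.11) were also higher. Phlda2 (-3.43 ± 0.42), Ascl2 (-2.74 ± 0.43), Peg12 (-1.47 ± 0.40) and Impact (-0.92 ± 0.17) were lower, Peg12 with overlapping groups. The mesenchyme marker sum was 65.8 and 341 CPM in FGF Sox2+, far below Tbxt 7 d, and its part in these differences was not tested. Source, medium and sorting differ together here and cannot be told apart. Tbxt+ cells were kept in FGF/CHIR and sorted as double negative, and Sox2+ cells were kept in FGF and sorted as Sox2+.

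The change from 48 h to 7 d differed between the branches for 14 members, 10 with the more positive change in the Tbxt branch and 4 with the more negative, where 33.6% of all genes differed, 14.2% and 19.4% by direction. The largest differences were those of Phlda2 (-6.16 ± 0.62, adjusted p = 5.21e-05), Zim1 (3.20 ± 0.73, adjusted p = 0.00562) and Usp29 (2.50 ± 0.39, adjusted p = 0.000497). The test of Zim1 is not independent of the filter, as stated above. Meg3, Dlk1, Peg3, Cdkn1c, H13, Sgce, Cd81 and Blcap were the other members with the more positive change, and Ascl2, Mest and Impact those with the more negative one. In Tbxt 48 h against Sox2 48 h, 2 of 34 members differed (Phlda2 and Grb10), where 3.90% of genes did, 2.05% higher and 1.85% lower.

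Ratios between neighbours within a library do not depend on library size, and showed unequal change along a cluster. They compare groups, not the 2 genes, whose counts differ with transcript ends. Meg3 over Rian was 3.10, 2.98 and 2.55 in NMPs and 8.04, 5.57 and 5.88 in Tbxt 7 d, with all other libraries between 2.92 and 4.63. Igf2r over Airn was 11.0, 13.3 and 18.5 in NMPs, 4.04 and 2.71 in Sox2 48 h and 3.23 and 3.67 in Tbxt 48 h, so every 48 h library lay below every NMP library.

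Mest over Copg2 was 3.32, 3.40 and 2.75 in NMPs, 26.4 and 26.9 in FGF Sox2+ and 26.4 in FGF/CHIR DN. Peg10 over Sgce was 2.56, 3.20 and 4.46 in NMPs, 9.82 in FGF DN and 1.211, 0.449 and 0.353 in Tbxt 7 d, the lowest of all groups. Peg3 over Usp29 was 19.96, 44.6 and 34.2 in NMPs, 19.9 and 19.8 in Sox2 48 h, 20.8 and 30.6 in Tbxt 48 h and 25.1, 22.3 and 20.9 in Tbxt 7 d. Tbxt 48 h and Tbxt 7 d lay within the NMP range, Sox2 48 h just under it, and FGF DN, at 58.5, above it. No test was run on the ratios.

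**Figure D5:**
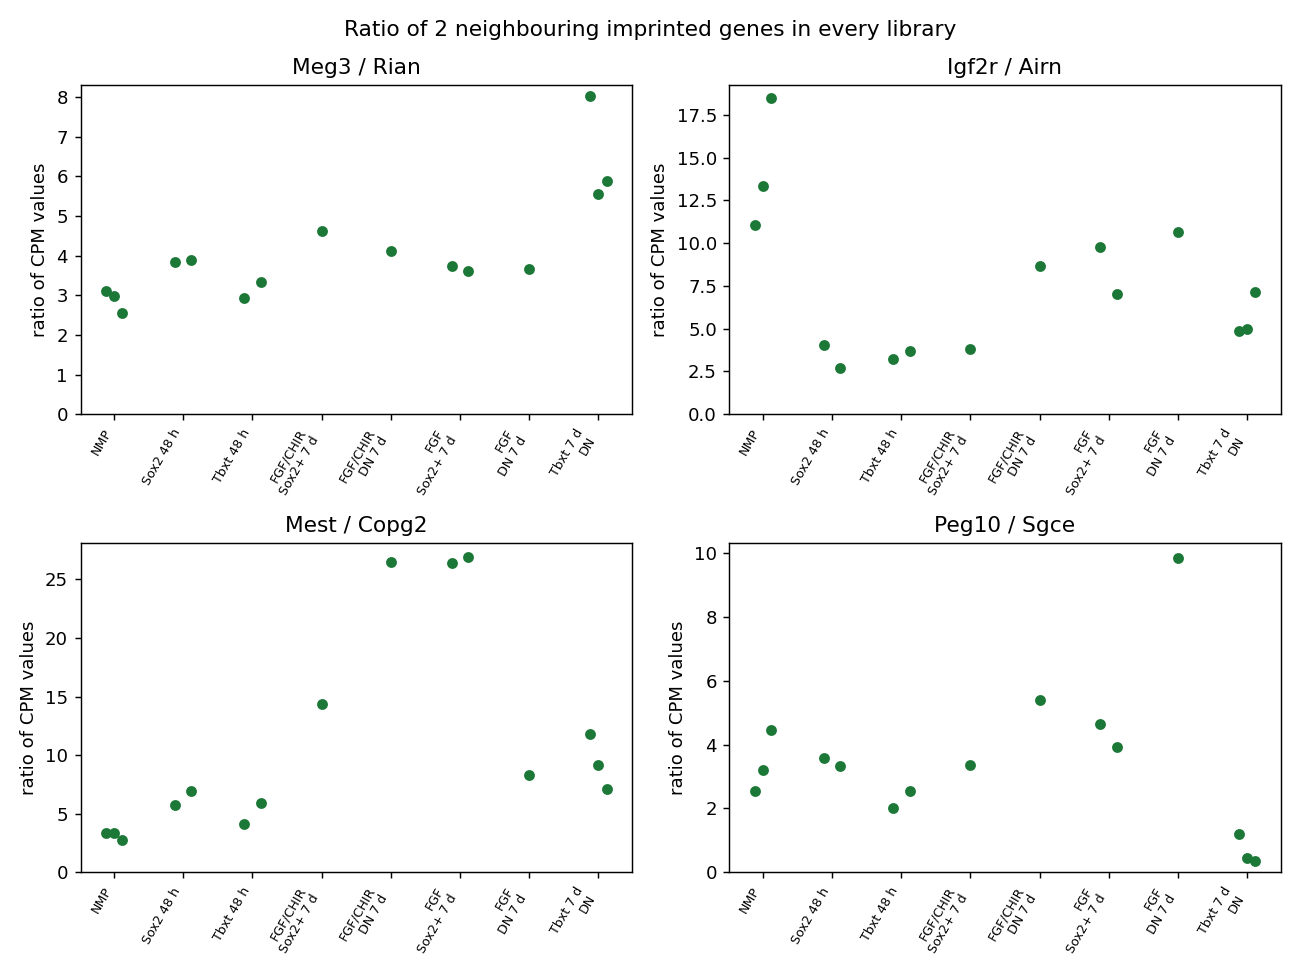
Ratio of the CPM of 2 neighbouring imprinted genes in each library (points), for Meg3 over Rian, Igf2r over Airn, Mest over Copg2 and Peg10 over Sgce. Igf2r over Airn is 11.0 to 18.5 in NMPs and 2.71 to 4.04 at 48 h, and Peg10 over Sgce is 0.353 to 1.211 in Tbxt 7 d.

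Genes around the imprinted set were taken from 4 lists. The lists were chosen with earlier results of these data known. Of 15 genes of the imprinted growth network, 13 were tested, 11 of them members given above. In Tbxt 7 d against Tbxt 48 h, 11 rose and 1 fell (median 1.37), where 30.7% of all genes rose and 23.5% fell. The rises were led by the added gene Dcn, a matrix proteoglycan (6.34 ± 0.32, adjusted p = 1.88e-08 by limma). Dcn reached 5 CPM only in the Tbxt 7 d and FGF/CHIR DN libraries. It passed the filter through groups where it was high, so its test is not independent of the filter. In Sox2 48 h and Tbxt 48 h against NMP, 6 rose and 2 fell, and 7 rose and 4 fell, where 7.92% and 18.4% of all genes were called. Since most of the list is counted above, these are not further evidence. Of 37 further imprinted genes, 34 were in the table and 19 were tested. None rose and 2 fell in Sox2 48 h, 1 rose and 5 fell in Tbxt 48 h, and 5 rose and 5 fell in Tbxt 7 d against Tbxt 48 h, a share near the background. At an unadjusted p under 0.05 (limma), 6 of these 19 genes changed in Sox2 48 h. The share of all genes at that threshold was not counted, so nothing is read from it. Sfmbt2, a Polycomb-type gene, rose in FGF Sox2+ (2.85 ± 0.45, adjusted p = 0.000806).

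The imprint maintenance list (14 of 15 tested) had 2 falls in Sox2 48 h against NMP, 14.3% of those tested, where 7.92% of all genes were called. The falls were of the de novo methyltransferase genes Dnmt3a (-1.32 ± 0.23, adjusted p = 0.0034) and Dnmt3b (-1.20 ± 0.25, adjusted p = 0.0111). In Tbxt 7 d against Tbxt 48 h, 4 rose and 3 fell, 50% of those tested, near the 54.2% of all genes called. Zfp57, whose protein protects imprints, was at 60.3, 51.1 and 45.6 CPM in Tbxt 7 d and rose from Tbxt 48 h (1.92 ± 0.19, adjusted p = 3.77e-06), and Dnmt3b fell (-2.39 ± 0.25, adjusted p = 7.31e-06). Of 8 IGF partners, all tested, 1 rose in Sox2 48 h and 4 in Tbxt 48 h against NMP, where 7.92% and 18.4% of all genes were called. In Tbxt 48 h they included the RNA-binding protein gene Igf2bp2 (2.27 ± 0.18, adjusted p = 8.57e-06) and the receptor Igf1r (1.10 ± 0.20, adjusted p = 0.00238). In Tbxt 7 d against Tbxt 48 h, 2 of these 8 rose and 4 fell, where 30.7% of all genes rose and 23.5% fell. Igf1 had the largest rise (3.78 ± 0.34, adjusted p = 1.92e-06) and Igf2bp1 the largest fall (-1.23 ± 0.16, adjusted p = 3.28e-05), both by limma. Igf1 reached 5 CPM only in the Tbxt 7 d, FGF/CHIR DN and FGF DN libraries. It passed the filter through groups where it was high, so its test is not independent of the filter.

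Over the alternative settings, among them each library left out in turn, 73 of the 110 calls of a member in a comparison held in every one, 37 were lost in at least 1 and none changed direction. In Sox2 48 h against NMP, the highest adjusted p of the lost calls came without Sox2 48 h replicate 2 for Kcnq1ot1 (0.159), Mest (0.224), Mirg (0.185) and Zdbf2 (0.312), and without Sox2 48 h replicate 1 for Grb10 (0.259), Mkrn3 (0.22) and Ndn (0.0724). In Tbxt 48 h against NMP, it came without Tbxt 48 h replicate 2 for Cd81 (0.191), Igf2r (0.177), Impact (0.433), Phlda2 (0.136) and Sgce (0.0973), and without Tbxt 48 h replicate 1 for Mirg (0.0934) and Peg10 (0.157). In Tbxt 48 h against Sox2 48 h, both calls were lost, at the highest adjusted p without Sox2 48 h replicate 2 for Grb10 (0.232), and without Tbxt 48 h replicate 2 for Phlda2 (0.0995).

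From Sox2 48 h to FGF Sox2+, the highest adjusted p of the lost calls came without Sox2 48 h replicate 2 for Airn (0.213), Mirg (0.0979), Sgce (0.119), Trappc9 (0.116) and Usp29 (0.206), and without FGF Sox2+ replicate 2 for Cd81 (0.18) and Copg2 (0.268). From Tbxt 48 h to Tbxt 7 d, it came without Tbxt 48 h replicate 1 for Gnas (0.0584), Igf2r (0.178) and Ndn (0.0588), and without Tbxt 48 h replicate 2 for Trappc9 (0.248). Between Tbxt 7 d and FGF Sox2+, it came without FGF Sox2+ replicate 2 for Mcts2 (0.263), Mirg (0.094), Peg12 (0.138) and Zdbf2 (0.142), and without FGF Sox2+ replicate 1 for Blcap (0.274), Ndn (0.102) and Ppp1r9a (0.142). The calls of Igf2 in both 48 h groups, of Cdkn1c, Peg3, Usp29, Airn and Peg12 against NMP, and of Meg3, Rian, Dlk1 and Phlda2 in Tbxt 7 d against Tbxt 48 h held in all.

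Another 26 of the 128 results not called with all libraries passed in at least 1 alternative. In Sox2 48 h against NMP the lowest adjusted p came with only the compared groups for Dlk1 (0.0148), Gnas (0.0303) and Phlda2 (0.0269). For Tbxt 48 h against NMP it came without NMP replicate 2 for Ube3a (0.0263). Between the 48 h branches it came with only the compared groups for Dlk1 (0.0243), Igf2 (2.23e-06) and Peg10 (0.00122). From Sox2 48 h to FGF Sox2+ it came with only the compared groups for Peg10 (0.00341) and Ppp1r9a (0.0339), with median-of-ratios scaling for Kcnq1ot1 (0.0431), and without FGF Sox2+ replicate 1 for Mcts2 (0.0406). From Tbxt 48 h to Tbxt 7 d it came without Tbxt 7 d replicate 1 for Copg2 (0.0083), Igf2 (0.00131), Peg10 (0.00679) and Peg12 (0.0255). Between Tbxt 7 d and FGF Sox2+ it came with median-of-ratios scaling for Kcnq1ot1 (0.029), and without FGF Sox2+ replicate 2 for Snrpn (0.00464). For the difference of the changes between branches it came without Tbxt 7 d replicate 1 for Igf2 (0.00239), Mirg (0.00226), Peg10 (0.000394), Peg12 (0.006) and Rian (0.00557), without FGF Sox2+ replicate 2 for Gnas (0.0177) and Snrpn (0.0354), without FGF Sox2+ replicate 1 for Mcts2 (0.0188), and without Tbxt 7 d replicate 3 for Airn (0.035).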

How the data were processed

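Bulk RNA-seq of 15 sorted libraries in 8 groups was analysed from the table of CPM (counts scaled to 1e6 per library) that the authors deposited. Per the labels' protocols, RNA was reverse transcribed with oligo-dT primers, tagmented and tagged with molecular identifiers. Per the submitters' processing notes, STAR 2.7, SAMtools 1.21 and the GRCm39 build were used. For the annotation, the counting and its strand, the method is not given in the sources used here. Rows without a gene name (21909 rows, 1.10 to 1.81% of the CPM of a library) and 92 spike-in rows were left out, which leaves 56092 named genes. No row of the 48 genes was shared with another gene.

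Only 71.1 to 78.7% of values were whole multiples of 1 read within 0.01 reads, so reads were not recovered and no count model was used. By member, values were whole reads in 3 of 15 libraries for Snrpn and in 5 for Kcnq1ot1 and Rian, but in 15 for Phlda2, Dlk1, Grb10 and Blcap. How fractional values arose is not known.

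One limma fit (limma 3.58.1 in R 4.3.3, with a trend and robust variance, two-sided) of log2(CPM + 1) held all 15 libraries in 8 groups, with Benjamini-Hochberg adjustment in each comparison and a threshold of 0.05. The procedure was tested on simulated data. Groups of 1 library are given as levels only. A member is described in every library if it passed the filter, was called in at least 1 comparison and reached 20 CPM in some library; from other lists, up to 4 called genes with the largest change may be named. Members and lists were chosen with earlier results of these data known. Alternatives changed the pseudocount, filter, scaling, libraries fitted, replicate block and single libraries.

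Same-numbered libraries of different groups did not in general deviate together: over 21 pairs the correlation of their deviations was -0.188 to 0.480, with 4 over 0.1, of which the NMP and Tbxt 48 h pairs had 0.480 and 0.457, so the numbers were not taken as pairs. Promoter and microRNA sequences are RefSeq's for GRCm38.p6 and were matched by symbol, 39 of 48 members having a promoter entry. They were used for sequence only.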

Additional observations from a re-analysis of the deposited data

Results flagged for a closer look

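For 14 members the change from 48 h to 7 d differed between the Tbxt branch (Tbxt 7 d over Tbxt 48 h) and the Sox2 branch (FGF Sox2+ over Sox2 48 h) by the test of the difference itself (limma, adjusted over 12943 genes), where 33.6% of all genes did. Values are the log2 change of the Tbxt branch minus that of the Sox2 branch. The difference was negative for Phlda2 (-6.16 ± 0.62), Ascl2 (-2.28 ± 0.64), Mest (-1.39 ± 0.25) and Impact (-1.28 ± 0.26). It was positive for Zim1 (3.20 ± 0.73), Usp29 (2.50 ± 0.39), Meg3 (2.06 ± 0.33), Dlk1 (1.84 ± 0.56), Peg3 (1.82 ± 0.30), Cdkn1c (1.78 ± 0.25), H13 (1.77 ± 0.37), Sgce (1.10 ± 0.22), Cd81 (1.06 ± 0.17) and Blcap (0.89 ± 0.32). Blcap was closest to the threshold (adjusted p = 0.0492). Ascl2 and Zim1 passed the filter only through 7 d groups where they were high, so their tests are not independent of the filter. The calls of Ascl2, Blcap and Dlk1 were lost in at least 1 alternative, with adjusted p up to 0.0674, 0.224 and 0.0718. The branches also differ in medium, FGF/CHIR against FGF, and in how the 7 d cells were sorted, double negative against Sox2+. The effects of source, medium and sorting cannot be told apart.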

How the results depend on the processing

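No result that passed the threshold, with all libraries or in an alternative, had the opposite direction in the other. Changes of sign among results that passed in neither were not counted. Of the recomputed values, 3122 stayed on their side of the threshold, 59 passed it newly and 174 lost it. With the threshold on low values at 20 CPM, 668 genes were called in Sox2 48 h against NMP in place of 1025, and with both set-apart libraries left out 1996. In Tbxt 48 h against Sox2 48 h, fitting only the compared groups called 5 members and 1135 genes and leaving both set-apart libraries out called 5 and 1328, in place of 2 and 505. The same omission called 23 members in place of 14 for the difference of the changes between branches. With the library number as a replicate block, 1 member was called in Tbxt 48 h against Sox2 48 h, where Grb10 was lost, and 12, 16, 10, 19, 25 and 14 in the other comparisons; in Tbxt 48 h against NMP the block lost Igf2r (adjusted p = 0.0544), Peg10 (0.0637) and Impact (0.115). Not every pair reached a correlation over 0.1, so the numbers are not taken to pair the libraries. Median-of-ratios scaling changed the split of genes in FGF Sox2+ against Sox2 48 h from 2361 higher and 842 lower to 1826 and 1168, and for the difference of the changes from 1834 and 2512 to 2241 and 2010, with median shifts of -0.12 and 0.16. Leaving out 1 library at a time gave 8 to 12 members and 315 to 744 genes in Sox2 48 h against NMP, lowest without Sox2 48 h replicate 1 for members and replicate 2 for genes. In Tbxt 48 h against NMP it gave 12 to 18 members and 702 to 2069 genes, lowest without Tbxt 48 h replicate 2. Tbxt 48 h against Sox2 48 h gave 0 to 2 members and 124 to 492 genes, with 0 members called by limma without Sox2 48 h replicate 2 or without Tbxt 48 h replicate 2 (9 with all libraries at an unadjusted p under 0.05). FGF Sox2+ against Sox2 48 h gave 6 to 10 members and 1453 to 2766 genes, lowest without Sox2 48 h replicate 2, and the difference of the changes 11 to 20 members and 2582 to 5167 genes, lowest without Tbxt 48 h replicate 2. For the count at an unadjusted p, the share of all genes was not counted, so nothing is read from it. A group left with 1 library was assumed to vary like the others. The cause of these shifts was not tested. Depth limits FGF Sox2+ replicate 2 most, where 3 reads are 3.76 CPM.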
